A study of Pseudotsuga menziesii with 26 samples.

Results

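Among the needle transcripts of Douglas-fir seedlings, 114 were higher in every deeply sequenced library from plants kept in exhaust of diesel fuel with a cerium additive than in any library from plants kept in filtered air. They were selected on these levels, out of the 173882 identifiers of the count table. Identifiers up to psme_t000300 were left aside (173683 remained), transcripts that took more than 1% of the counts of any library were removed (23, of which 21 had identifiers above that number), and the rest was rescaled to counts per 1000000 of what was left (CPM). A transcript was kept if its lowest CPM over the 8 deep libraries of the DECe and DECe Gas Phase groups was above its highest CPM over the 6 Air Control libraries, if its mean over those 8 was at least 1 CPM, and if that mean was at least 2 times the Air Control mean. Of the 26784 transcripts with a mean of at least 1 CPM in the 8 libraries, 0.426% met all conditions.

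The seedlings of Pseudotsuga menziesii were half-siblings, grown in pots and assigned at random to 4 atmospheres for 2 weeks, at 6 h a day and 5 days a week, with filtered air between exposures. The DECe group (7 seedlings) received whole exhaust of diesel fuel with engineered CeO2 nanoparticles as a catalyst, and the DECe Gas Phase group (6 seedlings) received the same exhaust after a HEPA filter, which takes out the particles. The DE group (7 seedlings) received whole exhaust of plain diesel fuel, and the Air Control group (6 seedlings) received air filtered through charcoal, Purafil and HEPA. Each atmosphere had 1 chamber, so an atmosphere and its chamber cannot be told apart. Poly(A) RNA came from needles of the previous year's growth, taken from lateral stems in winter dormancy, with 1 library per seedling. The tissue label could not be checked against marker genes, because the files give no names for the identifiers.

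Needles of conifers stay on the tree for years and take up gases through their stomata, while particles settle on their surface. Diesel exhaust carries soot together with nitrogen oxides and carbon monoxide, and cerium dioxide in the fuel helps soot to burn and leaves cerium in the exhaust particles. Plants meet such oxidants and organic compounds with antioxidant enzymes and with enzymes that oxidise foreign molecules, couple them to glutathione or sugars, and move them into the vacuole or wall. No member can be placed in any of these pathways here, so the transcripts are described by their identifier, by the length that the deposited RPKM values imply, and by their levels.

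Libraries fell into 15 deep and 11 shallow ones. Total counts ran from 12404373 to 60457187 in the 8 deep DECe and DECe Gas Phase libraries, from 3381425 to 6840719 in the shallow DECe and DECe Gas Phase libraries, from 2467403 to 9017951 in the shallow DE libraries, and from 24924192 to 43560508 in Air Control, which had no shallow library. DE had 1 deep library, replicate 5, with 28990156 counts. After removal of the dominant transcripts, 5877385 to 33262997 counts were left in the 8 deep libraries and 7389942 to 21176211 in Air Control, but 351488 to 722141 in the shallow DECe and DECe Gas Phase libraries and 146265 to 671763 in the shallow DE libraries. Air Control replicate 14 stood apart in its group, with 81.8% of its counts in the dominant transcripts. Without it, 133 transcripts met the rule, of which 111 were among the 114.

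**Figure D1:**
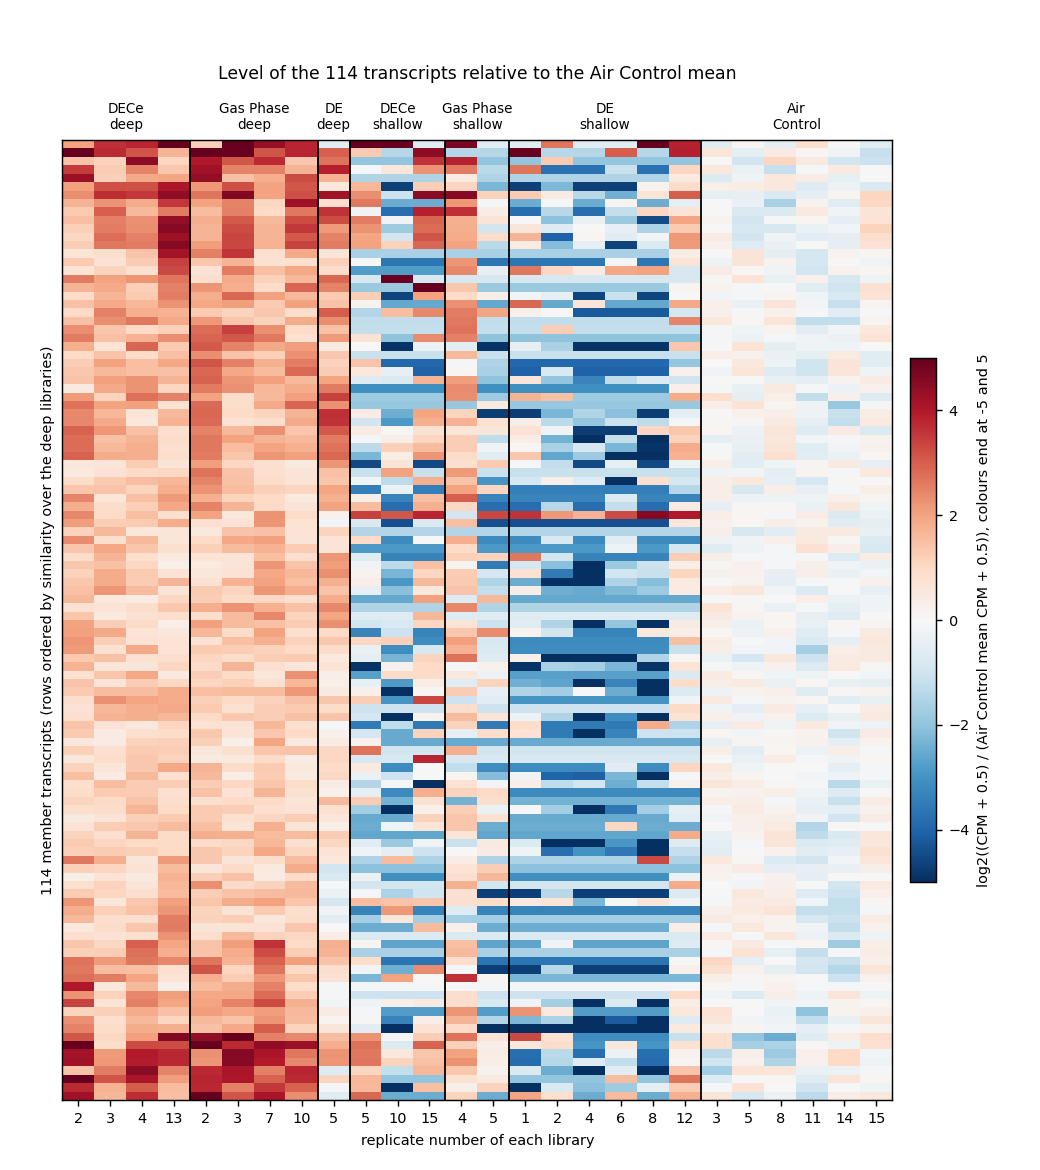
Level of each of the 114 transcripts (rows) in each of the 26 libraries (columns, replicate numbers below, Gas Phase standing for DECe Gas Phase), as log2 of CPM + 0.5 over the Air Control mean + 0.5. The 8 deep DECe and DECe Gas Phase libraries are above the Air Control libraries throughout because the rule required it, the deep DE library is mixed, and the shallow libraries hold many rows without a count.

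The values that chose the members are given as a description, with no test. The 114 transcripts together took 4640 to 10062 CPM in the 8 deep libraries and 1110 to 1707 CPM in the Air Control libraries. The highest sum, in DECe Gas Phase replicate 3, was 6492 CPM without the single transcript psme_t018942. The median member was at 21.7 CPM in the 8 libraries and at 4.59 CPM in Air Control, and the median ratio of the means was 3.74, with the middle 50% of members between 2.76 and 5.82. Over all 26784 transcripts at 1 CPM or more, the median ratio was 1.08. Ratios of at least 4 were found for 55 members and of at least 10 for 13. In bulk RNA, more RNA per cell and more cells of a kind that holds the transcript cannot be told apart.

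The gap between the groups was narrow for most members. The lowest of the 8 libraries was 1.16 times the highest Air Control library for the median member, under 1.1 times for 41 members and at least 2 times for 7. The member just inside this limit, psme_t015251, was at 5.96 CPM in its lowest DECe or DECe Gas Phase library and at 5.93 CPM in its highest Air Control library. The transcript just outside, psme_t017115, had 4.51 CPM against 4.53 CPM. At the limit on the ratio of means, the member just inside had a ratio of 2.02 and the transcript just outside one of 1.98. At the limit on the mean, these were at 1.05 CPM and 0.985 CPM. The lowest of the 8 values was most often that of DECe replicate 13 (24 members), DECe replicate 2 (23) or DECe replicate 3 (20), and least often that of DECe Gas Phase replicate 2 (6). The highest Air Control value was most often that of replicate 15 (27), 8 (26) or 3 (23). Leaving out Air Control replicate 3 let 184 transcripts through, including 113 of the 114.

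**Figure D2:**
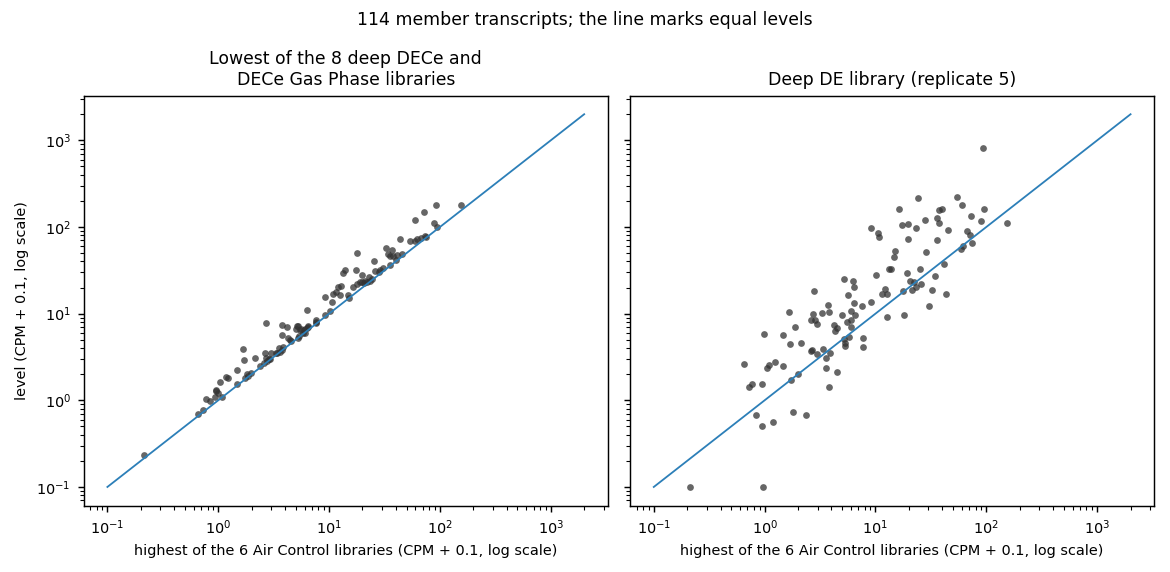
Each point is 1 of the 114 transcripts, with its highest Air Control level on the x axis and, on the y axis, its lowest level over the 8 deep DECe and DECe Gas Phase libraries (left) or its level in the deep DE library (right), all as CPM + 0.1 on log scales. On the left all points lie above the line of equal levels by choice, most of them close to it. On the right 81 points lie above the line and 33 on or below it.

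The member with the widest gap was psme_t158514, a 353 nt transcript. It was at 61.0, 16.6, 32.1 and 7.75 CPM in the deep DECe libraries and at 26.9, 31.5, 14.4 and 25.2 CPM in the deep DECe Gas Phase libraries, against 0.704, 1.46, 1.59, 0.776, 2.57 and 1.58 CPM in Air Control. All 8 exposed libraries were at least 3.01 times the highest Air Control library, and the deep DE library, at 3.73 CPM, lay between the groups.

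Next came psme_t010376 (2744 nt). Its levels were 52.4, 119.02, 115.7 and 208 CPM in the deep DECe libraries and 56.2, 118.9, 50.3 and 108 CPM in the deep DECe Gas Phase libraries. Air Control ran from 7.11 to 17.7 CPM with a median of 12.4 CPM. The deep DE library was at 18.2 CPM, just above the highest Air Control library and far below the 8.

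By mean level in CPM, the highest member was psme_t018942 (2061 nt), but its mean rests on 2 plants. It reached 3570 CPM in DECe Gas Phase replicate 3 and 1632 CPM in DECe replicate 13, and lay between 1.20 and 15.1 CPM in the other 6 deep DECe and DECe Gas Phase libraries. Air Control had 0 to 10 counts per library, at most 0.862 CPM. The deep DE library had 0 counts, which allows up to 0.172 CPM. The log2 ratio of its means, 11.34, rests on few Air Control counts, and it was 9.89 without DECe Gas Phase replicate 3 and 12.28 without Air Control replicate 11.

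The second by mean level, psme_t044566 (1059 nt), was high in a broader set of plants. It was at 223, 578, 508 and 967 CPM in the deep DECe libraries and at 283, 1095, 180 and 415 CPM in the deep DECe Gas Phase libraries, against 31.4, 32.8, 26.5, 31.5, 48.7 and 92.6 CPM in Air Control. Per kilobase of length it was the most abundant member, at 501 CPM per kilobase on average over the 8 libraries and 41.5 in Air Control. The next by this measure was psme_t125379 (422 nt), at 399 CPM per kilobase over the 8 and 70.95 in Air Control. For psme_t044566 the deep DE library, at 811 CPM, was above 6 of the 8.

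**Figure D3:**
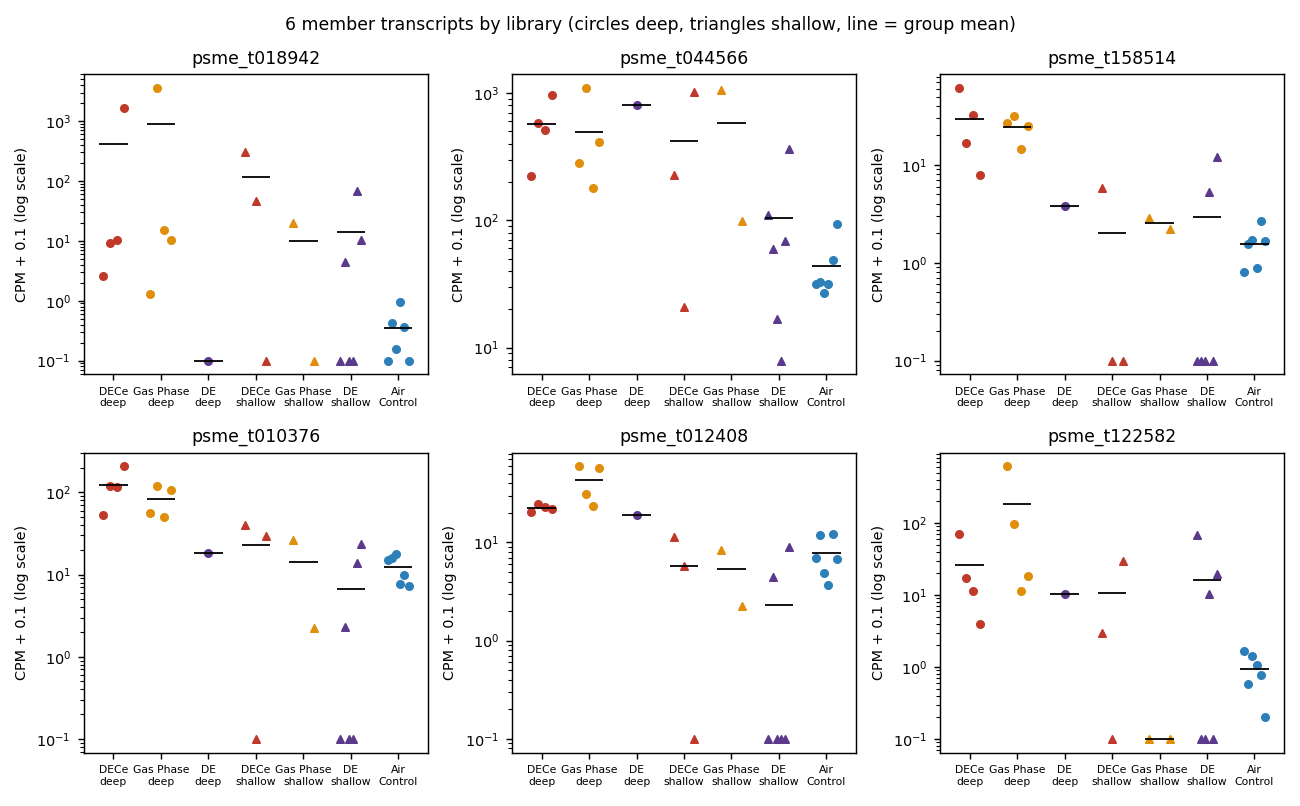
Levels of 6 members in every library, as CPM + 0.1 on a log scale, by group and depth class (circles deep, triangles shallow, lines the mean of each set, Gas Phase standing for DECe Gas Phase). psme_t018942 is carried by 2 deep libraries at 3570 and 1632 CPM, psme_t044566 is as high in the deep DE library (811 CPM) as in the 8, and the shallow libraries spread down to 0 counts, drawn at 0.1.

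Members differed in how evenly the 8 exposed plants shared the higher level. For 42 members the highest of the 8 was under 3 times the lowest, and for 11 it was over 10 times. The median coefficient of variation over the 8 was 46.4%, beside 44.9% over all 26784 transcripts, and in Air Control it was 40.4% against 43.01%. The rule used these same libraries, so nothing is read from that likeness. The narrowest spread was that of psme_t018935 (2061 nt), whose highest library was 1.59 times its lowest. Among the most abundant members, psme_t030989 (1463 nt) was also even, at 147, 173, 174 and 215 CPM in the deep DECe libraries and 170, 179, 177 and 271 CPM in the deep DECe Gas Phase libraries, against 38.6 to 71.0 CPM in Air Control. The members' median length was 1770 nt, against 1992 nt over all 26784 transcripts, and 106 of the 114 had a count in every Air Control library.

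Some members kept a nearly fixed ratio to each other through all 15 deep libraries, as singled out after their values were seen. Transcripts psme_t054074 (882 nt) and psme_t055457 (861 nt) stayed within a ratio of 0.722 to 1.13, while their levels ran from 29.4 to 166 CPM and from 32.2 to 168 CPM over the 8 exposed libraries. The SD of the log2 ratio of this pair was 0.144, against a median of 1.01 over the 2926 pairs of members with a mean of at least 10 CPM. A similar pair, psme_t014081 and psme_t015703 (2396 and 2273 nt), kept a ratio of 0.772 to 1.05. The sources used here do not say how reads with several matches were counted, and near-identical copies that share reads cannot be told from separate genes.

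A looser set, singled out in the same way, held psme_t037510, psme_t040766, psme_t041061 and psme_t043217, of 1240, 1149, 1141 and 1090 nt. The ratio of psme_t037510 to psme_t040766 ran from 0.436 to 0.744 (SD of the log2 ratio 0.215). That of psme_t041061 to psme_t043217 ran from 0.381 to 1.14 (SD 0.416). All of them were highest in DECe replicate 13, at 155, 285, 232 and 490 CPM in that order, and lowest among the 8 in DECe replicate 2, at 16.1, 28.1, 31.6 and 48.4 CPM. In Air Control all of them were highest in replicate 15, at 14.7, 19.7, 17.3 and 45.5 CPM. A further pair, psme_t028975 and psme_t031603 (1544 and 1439 nt), kept a ratio of 0.637 to 0.889 and was instead highest among the 8 in DECe Gas Phase replicate 2, at 94.9 and 126 CPM. The plants with the highest levels thus differed between these sets.

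The choice of members did not compare whole with particle-filtered exhaust of the cerium fuel, but it drew on the same libraries. It asked each of them to be above Air Control, so a transcript raised only in DECe or only in DECe Gas Phase could not be a member. The contrast is thus limited to transcripts high in both groups, and it cannot show how often the particles matter. All 114 members entered the test of the 4 deep DECe against the 4 deep DECe Gas Phase libraries, and 0 of them passed by the quasi-likelihood test of edgeR, at an adjusted p under 0.05, against 0 of all 45063 transcripts tested (0%). DESeq2 and limma-voom also called 0 members. At an unadjusted p under 0.05 there were 5 members (4.39%) by edgeR, against 5.42% of all transcripts. DESeq2 gave 6 members (5.31% of the members it gave a p-value, against 5.39% of all such transcripts). By limma-voom there were 9 (7.89%, against 6.41% of all). The members leaned to the particle-filtered side, with a median log2 fold change of -0.20 and 86 of 114 below 0, where all transcripts had a median of -0.0018. With library sizes alone as the scaling the members' median was 0.06 and that of all transcripts 0.26, so the members lay about as far below the rest. In that setting 68 of 114 members were above 0 (59.6%), against 65.7% of all transcripts. Complete separation was found for 2 members. All deep DECe libraries were above all deep DECe Gas Phase libraries for psme_t066271 (3.01 to 5.12 CPM against 1.12 to 2.78 CPM), as for 1.23% of the 26784 transcripts, and below them for psme_t022234 (1.804 to 3.15 CPM against 3.40 to 6.27 CPM), as for 0.62%.

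The smallest p in this contrast was that of psme_t012408 (2540 nt). It was at 20.4, 24.8, 22.7 and 22.1 CPM in the deep DECe libraries, and at 59.5, 30.9, 23.6 and 57.5 CPM in the deep DECe Gas Phase libraries. Thus 3 of the 4 DECe Gas Phase libraries were above all DECe libraries and 1 lay among them. The difference in log2 terms was -1.08 ± 0.40 (SE), with an edgeR adjusted p of 0.909 (0.692 to 1 under other settings). The widest difference was that of psme_t122582 (429 nt), which was at 70.6, 17.3, 11.4 and 3.81 CPM in the deep DECe libraries and at 615, 96.2, 11.4 and 18.5 CPM in the deep DECe Gas Phase libraries. In log2 terms this came to -3.03 ± 1.24 (SE), with an edgeR adjusted p of 0.909 (0.141 to 1 under other settings), and to -1.02 without DECe Gas Phase replicate 2, which held the value of 615 CPM, and to -4.24 without DECe replicate 2. Air Control was at 0.0987 to 1.56 CPM for this transcript.

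**Figure D4:**
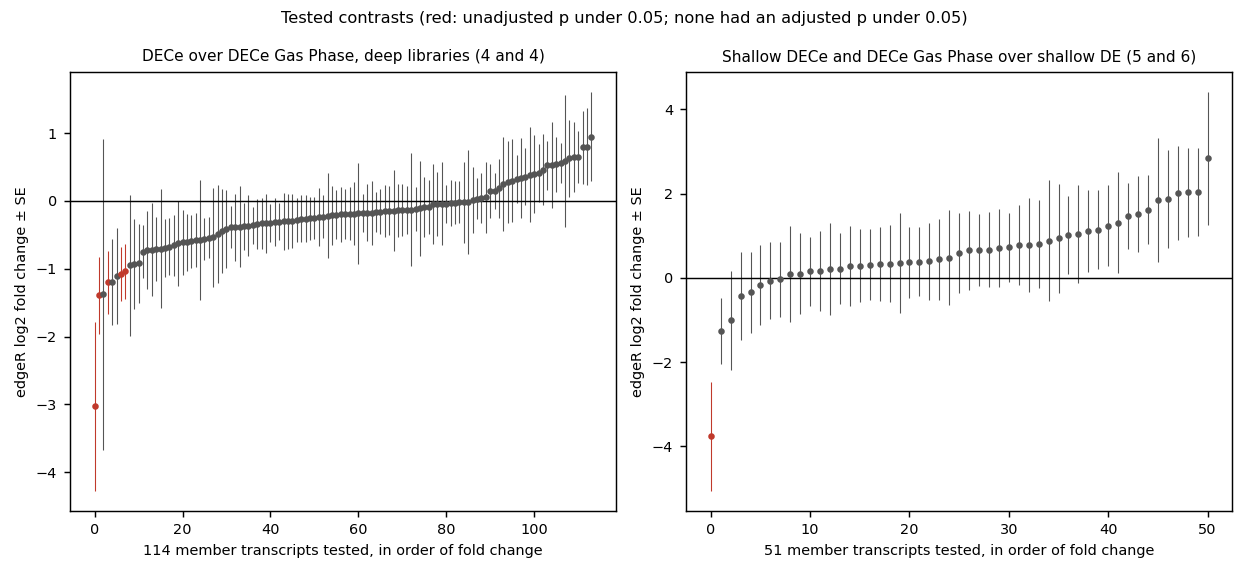
edgeR log2 fold changes with their SE for the members tested, in order of size. On the left 86 of 114 members are below 0 for deep DECe over deep DECe Gas Phase, and on the right 43 of 51 members are above 0 for shallow DECe and DECe Gas Phase over shallow DE. Of all transcripts tested, 49.5% were above 0 in the contrast on the left and 67.7% in that on the right. Red marks an unadjusted p under 0.05 (5 on the left, 1 on the right), and none passed after adjustment.

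The deep DE library is the sole deep library from exhaust of fuel without the cerium additive, and as 1 library it gives no test. Its summed level of the members was 4959 CPM (95% exact Poisson interval 4926 to 4992), between the lowest and the second lowest of the 8 deep DECe and DECe Gas Phase libraries and above all Air Control libraries. Of the 114 members, 81 were above their highest Air Control level there (71.1%), against 30.9% of the 26784 transcripts. Since the members were chosen for low Air Control values, nothing is read from that difference. The DE library was within the range of the 8 for 58 members, above it for 15 and below it for 41. The members were also chosen for high values in those 8, so nothing is read from these counts either. The median ratio to the Air Control mean was 2.68 for the members and 1.14 for all 26784 transcripts. The Air Control mean was part of the choice, so this contrast is a description only.

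Single members departed from the 8 in both directions. The pair psme_t028975 and psme_t031603 was at 163 and 217 CPM in the DE library. The 8 deep libraries reached at most 94.9 and 126 CPM, and Air Control averaged 12.6 and 17.2 CPM. In contrast, psme_t050109 (949 nt) was at 16.6 CPM in the DE library, at 72.1, 162, 611 and 150.5 CPM in the deep DECe libraries and at 357, 464, 154 and 379 CPM in the deep DECe Gas Phase libraries, while Air Control ran from 7.80 to 43.4 CPM. With psme_t018942, psme_t146992 (373 nt) was the other member without a count in the DE library, and 17 members were at or below their Air Control mean there. These transcripts were singled out after their values were seen.

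In the shallow libraries most members were near the limit of detection. A floor of 3 counts stood for 4.15 to 8.54 CPM in the shallow DECe and DECe Gas Phase libraries and for 4.47 to 20.5 CPM in the shallow DE libraries, above the level that many members had in Air Control. Between 54 and 102 members had at least 1 count in the shallow DECe and DECe Gas Phase libraries and 23 to 87 in the shallow DE libraries. Levels of single members there carry little weight, and the sum over the members is given in their place. Single members still made up much of some sums. In DECe replicate 15, psme_t044566 was at 1022 of 4265 CPM. In DE replicate 8, psme_t014196 was at 383 of 882 CPM.

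The summed level was 2319, 890 and 4265 CPM in the shallow DECe libraries (replicates 5, 10 and 15), and 4501 and 1372 CPM in the shallow DECe Gas Phase libraries (replicates 4 and 5). The shallow DE libraries were at 1592, 516, 261, 504, 882 and 2400 CPM (replicates 1, 2, 4, 6, 8 and 12). DECe replicate 15 and DECe Gas Phase replicate 4 came near the deep libraries of their groups, whereas DECe replicate 10 and DECe Gas Phase replicate 5 were below the highest Air Control sum of 1707 CPM, and the shallow DECe and DECe Gas Phase libraries overlapped with shallow DE. The mean of the log2 sums was 1.51 higher in shallow DECe and DECe Gas Phase than in shallow DE, and 0.63 higher with TMM factors. All transcripts tested in that contrast leaned the same way, with a median edgeR log2 fold change of 0.57. The 2 highest of the shallow DECe and DECe Gas Phase sums fell in the libraries with the lowest shares of counts in dominant transcripts, DECe replicate 15 (84.7%) and DECe Gas Phase replicate 4 (86.1%). Among the other 3 there was no such order, with 91.98% in DECe replicate 10 (890 CPM), 93.03% in DECe Gas Phase replicate 5 (1372 CPM) and 93.96% in DECe replicate 5 (2319 CPM). In shallow DE the share was 91.6% in replicate 12, which had the highest sum, and 93.8% to 95.8% in the other 5. The part of this share in the difference was not tested.

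**Figure D5:**
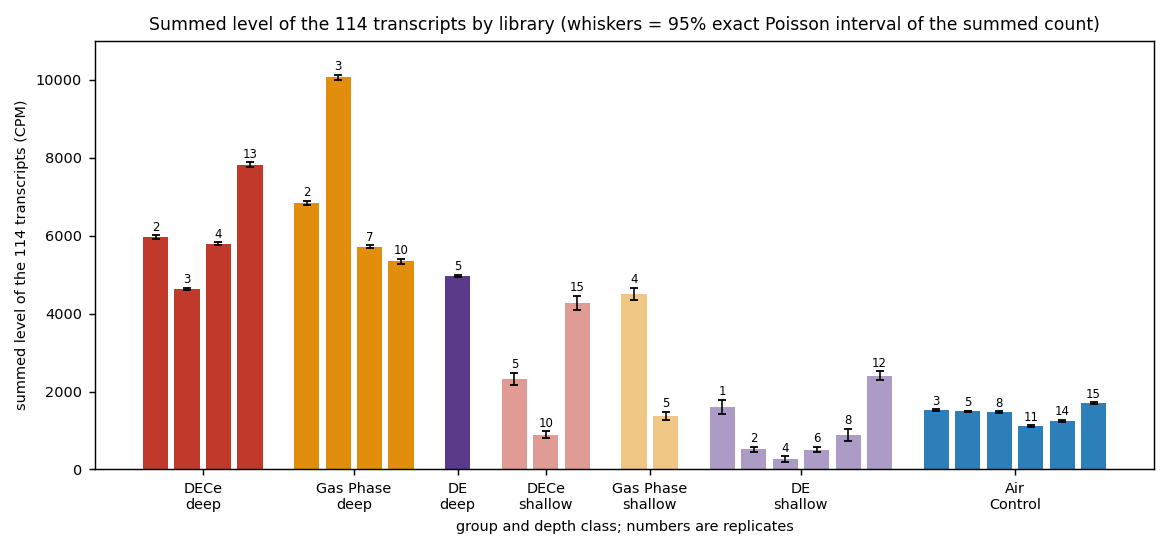
Summed level of the 114 transcripts in each library, in CPM, by group and depth class (Gas Phase standing for DECe Gas Phase), with the 95% exact Poisson interval of the summed count as whiskers. The deep DECe and DECe Gas Phase libraries lie between 4640 and 10062 CPM, the deep DE library is at 4959 CPM, the shallow libraries run from 261 to 4501 CPM, and Air Control lies between 1110 and 1707 CPM.

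The shallow libraries entered the choice of members only through the removal of dominant transcripts, so shallow DECe and DECe Gas Phase could be tested against shallow DE. Of the 114 members, 51 had enough counts to be tested, and 0 passed in edgeR, DESeq2 or limma-voom (adjusted p under 0.05), against 91 of all 8905 transcripts (1.02%) in edgeR, 1 higher (0.0112%) and 90 lower (1.01%). That total was 0 to 593 under other settings and 4 to 760 with 1 library left out. At an unadjusted p under 0.05 there was 1 member (1.96%) by edgeR, against 13.1% of all transcripts. DESeq2 gave 3 members (5.88%, against 16.4% of all) and limma-voom 5 (9.80%, against 21.6% of all). The tested members had a median log2 fold change of 0.59 and all tested transcripts one of 0.57. Without DECe Gas Phase replicate 4 these medians were -0.0048 and 0.25, and in the fit over all 26 libraries 0.54 and 0. On pooled counts, 95 of the 114 members were higher in shallow DECe and DECe Gas Phase than in shallow DE (83.3%), and so were 74.5% of the 26784 transcripts. A lone call arose without DECe Gas Phase replicate 5, for psme_t014196, at a log2 fold change of -3.07 (edgeR adjusted p = 0.0483). That call rests on a DECe Gas Phase group of 1 library, which is assumed to vary like the others.

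Single members behaved differently across the depth classes. The abundant psme_t044566 was at 225, 20.9 and 1022 CPM in the shallow DECe libraries and at 1054 and 98.0 CPM in the shallow DECe Gas Phase libraries. It was at 110, 59.1, 16.6, 7.79, 68.4 and 360 CPM in the shallow DE libraries, so the sets overlapped, and the difference in log2 terms was 1.47 ± 0.78 (SE), with an edgeR adjusted p of 0.408 (0.141 to 1 under other settings). It was 0.40 without DECe Gas Phase replicate 4, 0.89 without DECe replicate 15, 2.03 without DE replicate 12 and 3.00 with library sizes alone as the scaling. For psme_t158514, the member with the widest gap, 5 counts over the shallow DECe and DECe Gas Phase libraries stood against 10 counts over the shallow DE libraries, at 1.94 and 4.78 CPM. The smallest p was that of psme_t122582, with 16 counts against 30 counts, 15 of the 16 in DECe replicate 15 and 0 in both DECe Gas Phase libraries. Its edgeR adjusted p was 0.140 (0.0971 to 1 under other settings), and with so many libraries at 0 no fold change is given.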

How the data were processed

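Per the file headers, 1 deposited table gives raw counts for each transcript in each of the 26 libraries. The other deposited table gives RPKM values, per the file headers, and served for lengths (the ratio of a count to its RPKM and library total) and for alternatives. CASAVA 1.8.2 is named in the submitters' processing notes. Aligner, counting method, strand and transcriptome were not given in the sources used here. No table of gene names was used.

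The source label gave the groups and the title gave the replicate numbers. Within groups, no 2 libraries were alike to within counting noise (chi-square per degree of freedom at least 30.8).

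The members and tests were chosen with earlier results of these data known. Differences were tested with edgeR 4.0.16 in R 4.3.3, using unscaled counts, filterByExpr, TMM factors and the quasi-likelihood F test, with Benjamini-Hochberg adjustment over all transcripts tested. The 15 deep libraries shared 1 fit and the 11 shallow libraries another, and the code was checked on simulated counts. The SE is the log2 fold change divided by the square root of F. DESeq2 1.42.0 and limma 3.58.1 were alternatives. Transcripts were named by mean level, by the gap to Air Control and by smallest p. Others are said to be singled out, or complete a count. Intervals and the floor of 3 counts cover counting error only. Plants of an atmosphere shared 1 chamber, so p-values measure the spread between plants.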

Additional observations from a re-analysis of the deposited data

Results flagged for a closer look

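A library stood far from its group in 9 of 40 sets looked at (8 quantities in 5 sets of libraries). The limit used gives about 1 in 20 for normally distributed values. Here CPM was taken without a log scale and the transcripts were picked from these same data, so the 9 are not set against chance. For psme_t018942 these were DECe replicate 13 at 1632 CPM (next highest deep DECe library 10.04 CPM), DECe Gas Phase replicate 3 at 3570 CPM (next 15.1 CPM), DECe replicate 5 at 302 CPM among the shallow DECe and DECe Gas Phase libraries (next 45.6 CPM) and DE replicate 8 at 68.4 CPM among the shallow DE libraries (next 10.4 CPM, on 10 counts). For psme_t122582 they were DECe Gas Phase replicate 2 at 615 CPM (next 96.2 CPM), DECe replicate 15 at 29.3 CPM among the shallow DECe and DECe Gas Phase libraries (next 2.85 CPM) and DE replicate 1 at 68.1 CPM among the shallow DE libraries (next 19.4 CPM). For psme_t044566 they were DE replicate 12 at 360 CPM among the shallow DE libraries (next 110 CPM) and Air Control replicate 15 at 92.6 CPM (next 48.7 CPM). The summed level of the members had no such library in any of the 5 sets.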

How the results depend on the processing

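The number of transcripts that met the rule was 55 with a ratio of means of at least 4, and 83 to 160 under the other 7 alternatives to the settings. It was 83 on the authors' RPKM (67 of the 114 among them), 88 with no transcript removed (74 among them) and 94 with TMM factors (83 among them). Leaving out 1 library at a time gave 126 to 184 transcripts (the highest without Air Control replicate 3), with 111 to 114 of the 114 kept. In deep DECe against DECe Gas Phase, 0 members were called in each of the 19 alternatives, among them the fit with the replicate block, where 81 of 38874 transcripts were called in all, against 0 of 45063, 3 with no filter and 12 by DESeq2. With the replicate block the members' median log2 fold change was -0.64 (94 of 114 below 0) and that of all transcripts -0.099, against -0.20 and -0.0018 in the fit reported. Above 0 with that block were 17.5% of the members and 46.2% of all transcripts. In shallow DECe and DECe Gas Phase against shallow DE, members called were 0 in the 11 other settings, with the replicate block too, and 0 to 1 when 1 library was left out. All transcripts called there ran from 0 (library sizes alone, a mean of at least 50 counts, or DECe alone) through 17 without the dominant transcripts, 38 with DECe Gas Phase alone, 59 in the fit over all 26 libraries, 210 by limma-voom and 457 with the replicate block to 593 by DESeq2, around the 91 reported. With 1 library left out it was 760 (DECe Gas Phase replicate 5), 274 (DECe replicate 5), 53 (DE replicate 8), 39 (DE replicate 6), 34 (DE replicate 4) or 4 (DECe Gas Phase replicate 4), and 62 to 125 for the others. The log2 fold change of psme_t122582 there was negative in the fit reported and in every other alternative that tested it. With the replicate block it turned to 7.38, where its SE was 41317 and no estimate was reached. Members above Air Control in the deep DE library were 81, and 75 to 83 under the alternatives. The difference of mean log2 summed levels, shallow DECe and DECe Gas Phase minus shallow DE, was 1.51, against 2.29 on RPKM, 0.63 with TMM factors and 1.47 without psme_t018942, an alternative chosen after seeing the data. Depth limits the shallow libraries, where 63 of 114 members could not be tested. The labels do not say what a shared replicate number means. Deviations of the same-numbered deep DECe and DECe Gas Phase libraries correlated at 0.212 (number 2) and -0.232 (number 3). Pairs with different numbers ran from -0.424 to 0.455, so these values cannot tell whether same-numbered libraries share more than a number. The cause of these shifts was not tested.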

Other observations

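A member ran against the depth classes. The 2388 nt transcript psme_t014196 was at 174, 140.5 and 229 CPM in the shallow DECe libraries, at 8.31 and 168 CPM in the shallow DECe Gas Phase libraries and at 53.8 to 383 CPM in the shallow DE libraries. In the deep DECe and DECe Gas Phase libraries it was at 24.0 to 85.8 CPM, in the deep DE library at 18.8 CPM and in Air Control at 9.47 to 21.03 CPM. It was the most abundant member in DECe replicate 10, DECe Gas Phase replicate 5 and DE replicates 1, 2, 6 and 8, and DECe Gas Phase replicate 4 was the sole shallow library with a level below the highest Air Control level. It was singled out after its values were seen.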
